A study of Mus musculus with 11 samples.

Results

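Genes of protein folding in the endoplasmic reticulum (ER) were followed through the cell classes of the developing mouse cochlear duct. They were chosen by symbol and made up 10 of the 18667 genes listed at all 4 ages: Hspa5, Hsp90b1, Calr, Canx, Pdia3, Pdia4, Pdia6, P4hb, Sdf2l1 and Creld2. All 10 passed the filter on low values (a mean of 10 CPM, counts per 1000000 unique molecular identifiers or UMIs, or more) in every comparison. The 11 libraries were single-cell RNA-seq of the cochlear epithelium of wild-type CD1 mice, untreated, with 2 libraries at embryonic day 14 (E14), 3 at E16, 4 at postnatal day 1 (P1) and 2 at P7. Each library pooled the cochleae of several animals of either sex, so that libraries, and not animals or cells, were the replicates. P-values between ages measure the spread between collections. Those between classes measure the spread of class values around an additive fit of class and library, pooled over all classes, differences between ages included. They do not measure the spread of any pair of classes alone, and can be too small for a difference that varies more than the others. No mutant, transgene or agent was involved. Ages were collected as separate libraries, so that age and collection cannot be told apart. Few cell barcodes recurred between libraries of an age, with 84 of 13959 at P1, 29 of 7932 at E16, 11 of 5242 at E14 and 9 of 3368 at P7.

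Proteins bound for the cell surface, the matrix or the secretory route are folded in the ER before they leave it. Chaperones hold the nascent chains, isomerases set the disulfide bonds, and a shared transcriptional programme, the unfolded protein response, raises many of these genes together when folding demand exceeds capacity. In the cochlea, the columnar cells of Kölliker's organ (KO) and the interdental cells of the spiral limbus secrete the glycoproteins and collagen of the tectorial membrane, whereas hair cells (HCs) build a mechanosensory bundle and ribbon synapses.

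Cells were placed in classes by scores over marker genes, none of which is a member: 10 markers for KO, 12 for interdental cells, 15 for HCs and 4, led by Oc90, for cells of the roof of the duct. Further gates of 8 markers each took pillar, Deiters' and lateral prosensory cells and Hensen's, Claudius and lesser ridge cells. They also took cells that passed the KO cut, below the limit given next. With the cells that passed no cut, these formed the class of other cells. Cells that passed more than 1 cut besides that of KO, or 1 such cut with a KO score of at least 1.0, were left out as mixed (530 cells at P1). At P1 the classes held 10103 KO, 652 interdental, 963 hair, 130 roof-type and 1665 other cells. HCs were scarce at E14 (21 and 31 cells), and classes of fewer than 10 cells in a library were not used, which left 9 libraries for interdental cells, 8 for roof-type cells and 11 for the rest. The top 10 genes by fold of the hair class held 5 to 8 of its own markers at each age, and those of the KO class held 9, 6, 5 and 2 from the youngest age to the oldest. The KO and interdental classes were ranges of a score rather than separate groups. At P1, 1024 cells lay within 0.1 of the KO cut against 1 cell for the hair cut, and interdental cells kept a median KO score of 0.68 against 1.56 in KO cells. Epithelial markers were present in every class. Depth differed too, since the median count of UMIs per cell at P1 was 5306 to 9392 in HCs and 3656 to 5454 in KO.

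The windows 250 bases ahead of the annotated starts are shown first, because most of the members carry in them the ER stress response element, a site through which the unfolded protein response acts. The element was searched on both strands as CCAAT, any 9 bases, then CCACG. It was found in 6 of the 10 members, at 7 sites, and in 0.119% of all 32851 RefSeq windows of 300 bases (250 before to 50 after a start, GRCm38.p6, which corresponds to mm10). The 7 sites are written with CCAAT first and with both fixed parts in capitals.

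Hspa5 site: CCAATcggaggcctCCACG
Hsp90b1 far site: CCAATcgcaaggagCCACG
Hsp90b1 near site: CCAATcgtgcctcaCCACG
Pdia6 site: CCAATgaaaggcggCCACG
Calr site: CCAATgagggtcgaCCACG
Canx site: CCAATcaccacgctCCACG
Creld2 site: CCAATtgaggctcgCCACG

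The sites began 65 bases before the start in Hspa5 (chr2:34772025-34772043), 212 and 107 bases before it in Hsp90b1 (chr10:86705638-86705656 and chr10:86705533-86705551), 98 in Pdia6 (chr12:17266491-17266509), 162 in Calr (chr8:84847075-84847093), 145 in Canx (chr11:50325800-50325818) and 126 in Creld2 (chr15:88819520-88819538). All 7 lay ahead of the RefSeq start, and the Hspa5 site alone fell inside the gene span of the Ensembl-type annotation, which begins at base 34771970. The far Hsp90b1 site lay in the direction of the gene and the near one in the opposite direction. The CCAAT box alone was present in all 10 members and in 37.4% of all windows, and each complete element contains one. Pdia3, Pdia4, P4hb and Sdf2l1 held no complete element in this window, which says nothing on the factor or on other sites. The 250 bases ahead of Hspa5 (chr2:34771840-34772089, plus strand) and of Hsp90b1 (chr10:86705445-86705694, minus strand) show 1 and 2 elements in capitals, and those ahead of Pdia4 (chr6:47813513-47813762, minus strand), the member with the largest fold between HCs and KO, show none. All 3 are written in the direction of the gene.

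Hspa5: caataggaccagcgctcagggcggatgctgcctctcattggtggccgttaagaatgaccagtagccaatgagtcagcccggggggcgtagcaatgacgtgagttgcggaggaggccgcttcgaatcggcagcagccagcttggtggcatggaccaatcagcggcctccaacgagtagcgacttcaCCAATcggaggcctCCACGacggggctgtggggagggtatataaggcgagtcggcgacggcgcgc
Hsp90b1: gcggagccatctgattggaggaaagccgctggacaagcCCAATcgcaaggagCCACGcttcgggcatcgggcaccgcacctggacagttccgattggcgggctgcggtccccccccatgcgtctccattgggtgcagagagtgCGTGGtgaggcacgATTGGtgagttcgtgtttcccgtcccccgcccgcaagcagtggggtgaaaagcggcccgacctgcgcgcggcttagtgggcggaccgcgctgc
Pdia4: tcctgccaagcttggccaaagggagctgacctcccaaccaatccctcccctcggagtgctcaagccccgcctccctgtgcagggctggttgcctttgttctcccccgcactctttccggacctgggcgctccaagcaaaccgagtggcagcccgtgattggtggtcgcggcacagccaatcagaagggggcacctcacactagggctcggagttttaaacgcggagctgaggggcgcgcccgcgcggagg

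HCs were the class with the least folding transcript. Summed over the 10 members, the share of all UMIs at P1 was 0.752% to 1.17% in KO and 0.184% to 0.289% in HCs, and the ranges of these classes did not overlap at any of the 4 ages. At P1, HCs had the lowest mean of the 5 classes for 9 of the 10 members, KO the highest for 6, and roof-type cells the highest for the other 4 (Hsp90b1, Calr, Canx and P4hb). Levels are given in CPM, as the mean over the cells of a class in a library. They are 3' UMI counts, so that levels are compared between classes and not between genes.

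**Figure D1:**
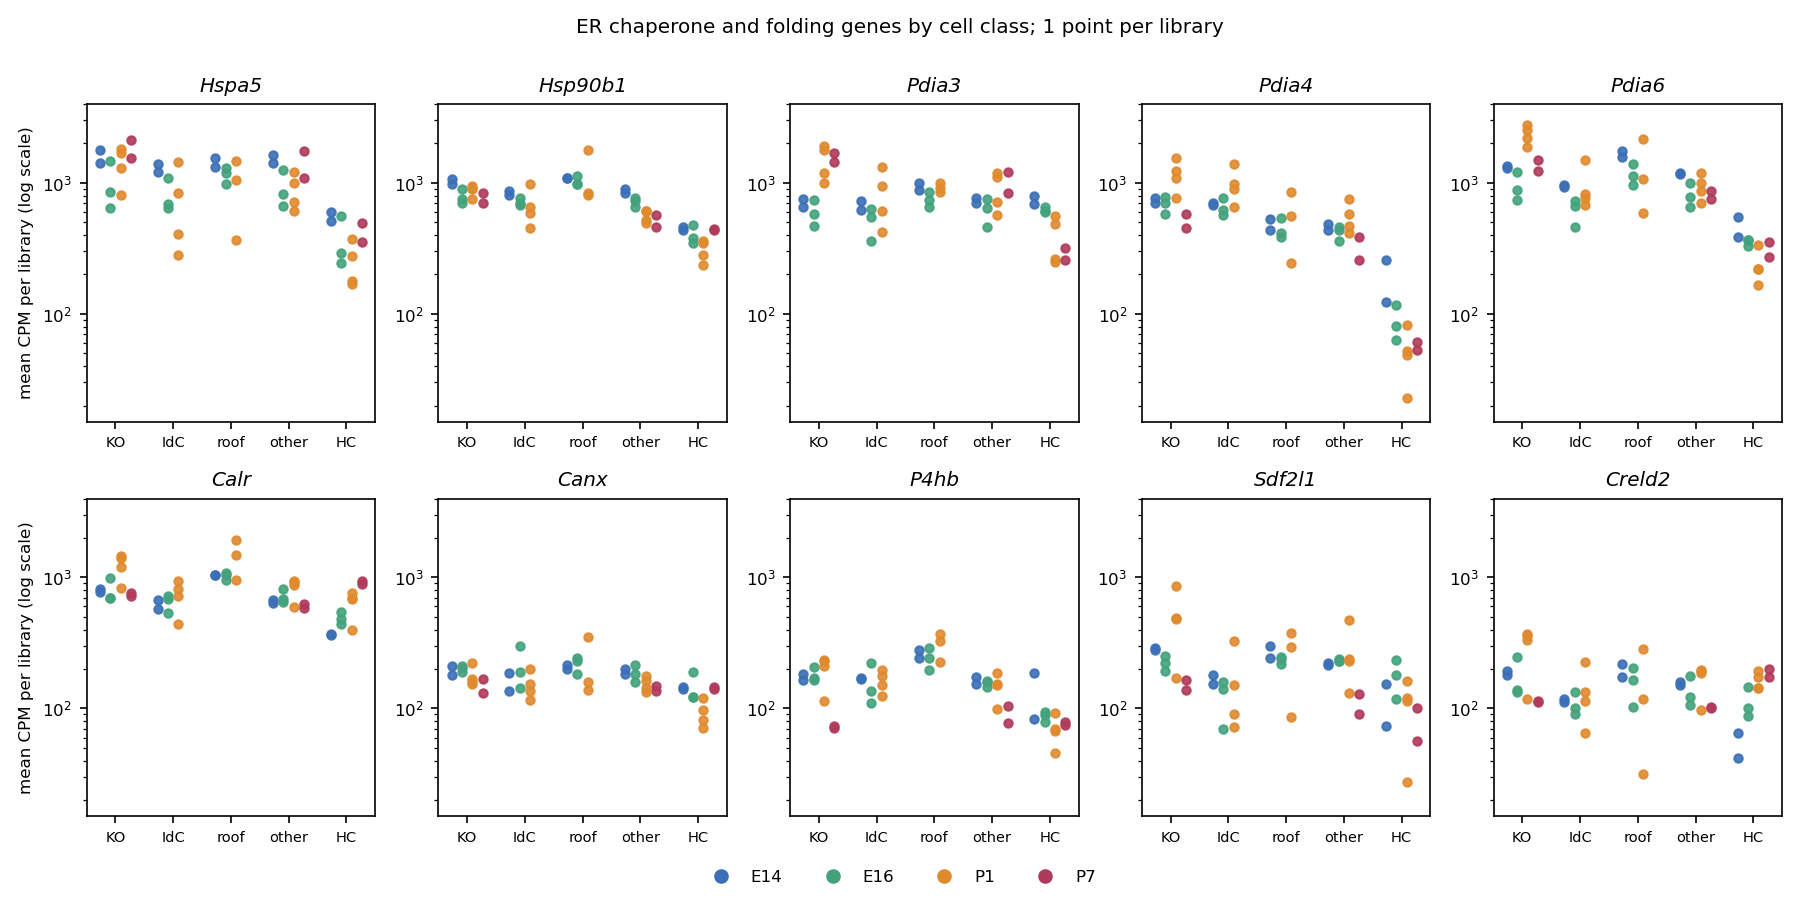
Mean CPM (log axis) of each of the 10 genes, with 1 point per library, in Kölliker's organ (KO), interdental (IdC), roof-type, other and hair cells (HC), coloured by age. Hair cells lie lowest for most genes, and for Pdia4 their points run from 22.7 to 259 CPM while those of KO run from 450 to 1551 CPM.

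The ER-specific Hsp70 and Hsp90 were both low in HCs. Hspa5 encodes BiP, the Hsp70 of the ER and a chaperone bound to the sensors of the unfolded protein response. In the 4 P1 libraries its KO levels were 1820, 1688, 1297 and 803 CPM, and its HC levels 371, 278, 178 and 170 CPM. Every HC value was below every KO value, although replicate 4 was low in both classes. Over all 11 libraries the log2 fold change of HCs against KO was -1.93 (SE 0.13, limma, Benjamini-Hochberg adjusted p = 1.70e-16), which is 3.81-fold lower. Hsp90b1, the ER member of the Hsp90 family, measured 899, 950, 917 and 760 CPM in KO at P1 and 363, 347, 284 and 235 CPM in HCs, again without overlap. Its log2 fold change was -1.17 (SE 0.10, limma adjusted p = 8.19e-13).

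The disulfide isomerases held both the largest and some of the smaller differences. Pdia4, a disulfide isomerase found with BiP in the ER, measured 1551, 1223, 1097 and 771 CPM in KO at P1. In the same libraries HCs had 83.1, 51.7, 48.3 and 22.7 CPM, from 131, 58, 84 and 50 UMIs. HC levels were therefore 2.95% to 5.35% of KO, and over all libraries the log2 fold change was -3.25 (SE 0.18, limma adjusted p = 4.37e-19), or 9.48-fold lower. For scale, Pdia4 in HCs was at 2.95% to 33.9% of KO over all 11 libraries (median 9.11%). Over the same libraries Epyc, a matrix proteoglycan and a KO gate marker, reached 0 to 3.73% of its KO level in HCs (median 1.28%). Tecta, also a gate marker, reached 1.72% to 31.6% (median 11.97%), and Calb1 0 to 4228% (median 113%). The matrix genes Lum, Mia and Col9a1 had medians of 2.22%, 2.57% and 4.07%. The part of the gate in the Epyc ratio, and of free RNA in the low Pdia4 values, was not tested. Pdia6, which also works with BiP, measured 2787, 2525, 2211 and 1880 CPM in KO at P1 against 335, 221, 221 and 168 CPM in HCs, with a log2 fold change over all libraries of -2.22 (SE 0.17, limma adjusted p = 6.44e-15). Pdia3, which works on glycoproteins held by the lectin chaperones, was 1923, 1182, 992 and 1791 CPM in KO and 556, 262, 250 and 486 CPM in HCs at P1, where the classes were also apart. Its fold over all libraries was smaller (-1.10 log2, SE 0.19, limma adjusted p = 4.03e-06), and HCs were above KO in 4 of the 5 embryonic libraries. P4hb, the canonical disulfide isomerase and a subunit of collagen prolyl hydroxylase, was lower by 1.77-fold (log2 -0.83, SE 0.13, limma adjusted p = 3.81e-07) and was lower in 8 of 11 libraries.

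Calr and Canx bind the trimmed glycans of new glycoproteins, the first as a soluble and the second as a membrane protein. Calr was lower in HCs in 9 of 11 libraries (log2 -0.67, SE 0.11, limma adjusted p = 1.48e-06) and Canx in 10 of 11 (log2 -0.53, SE 0.11, limma adjusted p = 1.00e-04). Sdf2l1, a partner of the ER J-domain proteins that serve BiP, was lower in 10 of 11 libraries (log2 -1.28, SE 0.17, limma adjusted p = 4.54e-08). Creld2, a stress-induced ER protein, was lower in 8 of 11 libraries (log2 -0.59, SE 0.21, limma adjusted p = 0.0181), and its call was lost without either E14 library, without P1 replicate 2 or 3, with at least 25 cells per class, and in the P1 libraries alone (adjusted p = 0.0747).

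All 10 members were thus called lower in HCs than in KO and none higher, where 27.5% of the 9289 genes tested were called lower and 27.1% higher. The median log2 fold change of the members was -1.13 beside 0.00 for all genes. Within P1 alone, 9 members were lower and none higher, beside 24.8% of 9112 genes lower and 29.2% higher. Stress genes induced by dissociation were also lower in HCs at P1, summing to 635 to 2283 CPM against 2820 to 4492 CPM in KO over 11 genes, and their part in the difference was not tested.

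**Figure D2:**
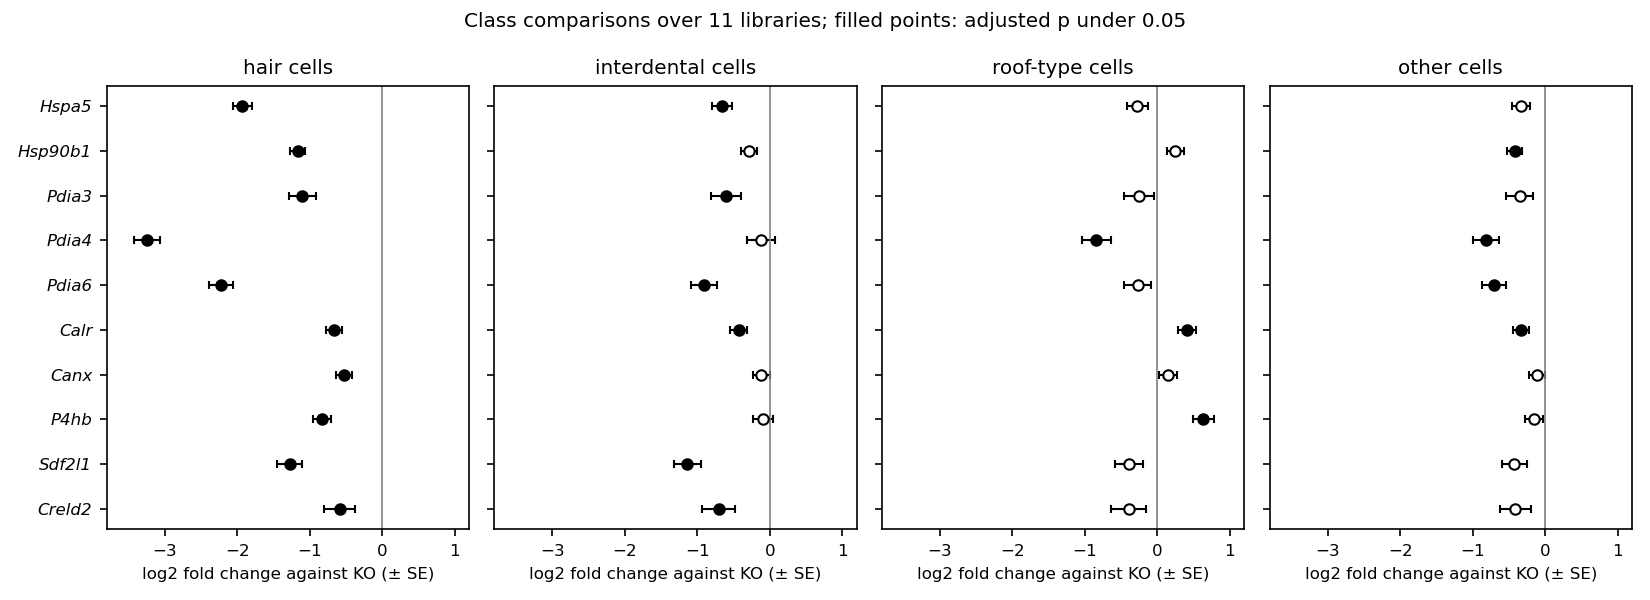
Log2 fold change against Kölliker's organ (points, with bars of ± 1 SE) for each gene in hair, interdental, roof-type and other cells, from 1 fit over 11 libraries. Filled points have an adjusted p under 0.05, which holds for 10 genes in hair cells, 6 in interdental cells, 3 in roof-type cells and 4 in other cells.

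The rest of the secretory machinery was counted in lists of genes. Other disulfide and prolyl isomerases of the ER were lower in HCs for 19 of 22 genes tested and higher for none, led by Fkbp9 (log2 -3.78, SE 0.23), the collagen chaperone Serpinh1 (-3.00, SE 0.32) and Fkbp10 (-2.60, SE 0.24). Other ER chaperones and co-chaperones were lower for 11 of 15, led by Dnajb9 (-1.58, SE 0.27), Dnajc3 (-1.32, SE 0.15) and Hspa13 (-1.09, SE 0.17), and 1 was higher. The list of ER export by COPII vesicles was lower for 13 of 19 and higher for 1, with Kdelr3, a receptor that returns escaped ER proteins, at -1.62 (SE 0.24). Of the translocon, signal peptidase and oligosaccharyl transferase, 13 of 21 were lower, including Ddost (-1.56, SE 0.16) and Ssr2 (-1.49, SE 0.16), and 4 were higher, with the signal peptidase subunit Sec11c at 1.68 (SE 0.20). Glycan trimming and ER-associated degradation were split more evenly, with 6 of 14 lower, led by Os9 (-1.10, SE 0.16), and 2 higher.

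The regulators of the unfolded protein response did not move one way. Of 10 tested, 5 were lower and 3 higher in HCs, and their median log2 fold change was -0.29. Xbp1, the transcription factor spliced by the sensor Ire1, was lower (log2 -1.12, SE 0.11, limma adjusted p = 1.68e-11), and Atf3, which is also in the list of dissociation stress genes, was lower as well (-2.52, SE 0.28). Atf6, the membrane-bound factor cleaved on ER stress, was higher (1.23, SE 0.21, limma adjusted p = 4.09e-06).

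Chaperones outside the ER went the other way. Of 18 cytosolic and mitochondrial chaperones, 13 were higher in HCs and 1 lower, with a median log2 fold change of 0.40. Hsp90aa1, the inducible cytosolic Hsp90, stood at 1.11 (SE 0.14, limma adjusted p = 1.38e-08), Hspa4 at 0.75 (SE 0.12) and Cct7, a subunit of the chaperonin that folds actin and tubulin, at 0.73 (SE 0.09). Of the dissociation stress genes, 6 of 10 were lower and none higher, led by Atf3 and Jun (-1.81, SE 0.27). Secreted matrix proteins that were not gate markers were lower for 13 of 13, with Lum at -5.40 (SE 0.21) and Mia at -5.39 (SE 0.19), and cell cycle genes for 5 of 5. Counts of this kind describe the lists and were given no test of their own.

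**Figure D3:**
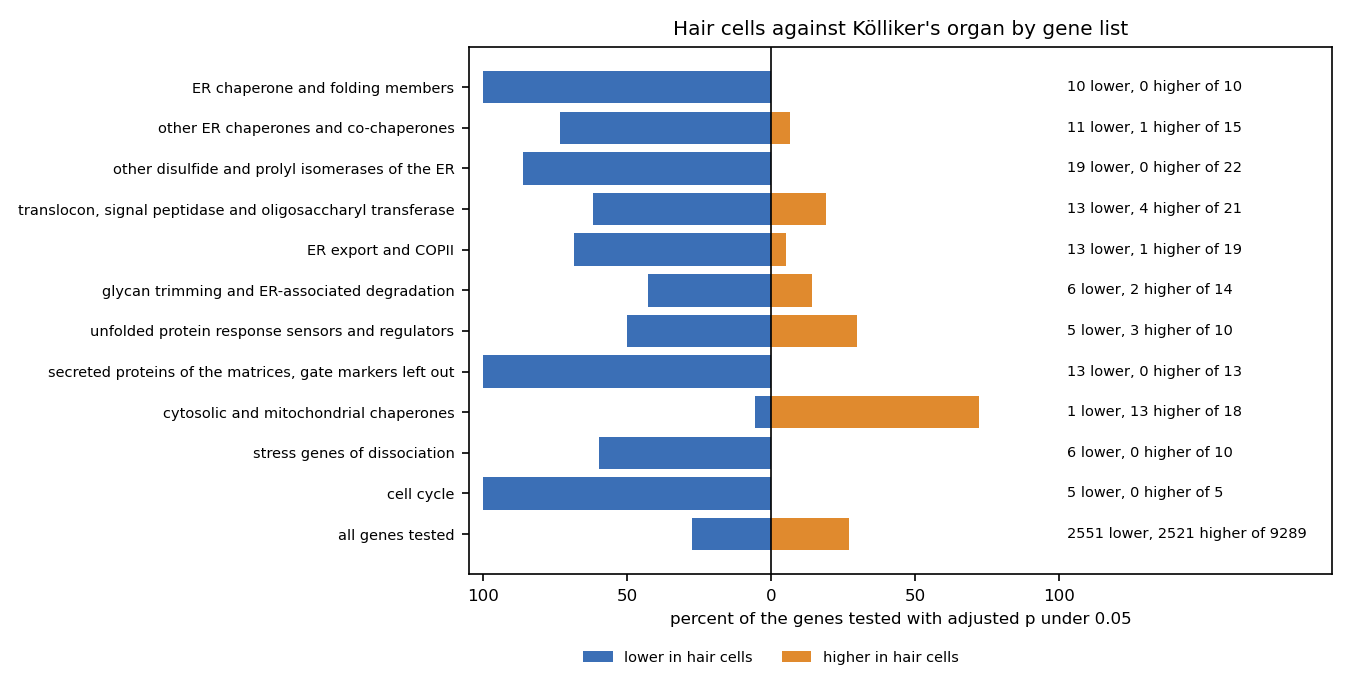
Percent of the genes tested in each list that were called lower (left, blue) or higher (right, orange) in hair cells than in Kölliker's organ, with the counts beside the bars. The secretory lists lean to the left, the cytosolic chaperones lean to the right with 13 of 18 higher, and all genes tested are near balance (27.5% and 27.1%).

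In interdental cells, the other secretory cells of the medial duct, 6 members were called lower than in KO and none higher, beside 5.26% of genes lower and 4.50% higher. Sdf2l1 had the widest gap, at 18.9% to 71.7% of the KO level over 9 libraries (log2 -1.14, SE 0.19, limma adjusted p = 1.72e-05). At P1 it measured 326, 150, 90.8 and 71.8 CPM in interdental cells against 858, 487, 481 and 171 CPM in KO, lower in each library although the ranges overlapped. Pdia6 was lower in 9 of 9 libraries (log2 -0.91, SE 0.18, limma adjusted p = 3.41e-04) and Hspa5 in 8 of 9 (-0.66, SE 0.14, limma adjusted p = 8.19e-04), with Calr at -0.43 (SE 0.12), Pdia3 at -0.61 (SE 0.20) and Creld2 at -0.70 (SE 0.23). Pdia4, the member with the widest gap in HCs, was at 80.3% to 109% of the KO level in interdental cells (log2 -0.12, SE 0.20, limma adjusted p = 0.811).

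Within P1 the same number of members, 6, was lower in interdental cells, beside 6.72% of genes lower and 5.53% higher. At this age 972 cells passed the interdental cut and 652 were kept after mixed cells were left out. The class was so limited to KO scores under 1.0, over markers of which some are secreted proteins, while KO cells had no such limit. Stricter and looser gates moved this limit and no alternative lifted it, and its part was not tested. At P1, 6 glial markers summed to 156 to 173 CPM in interdental cells against 62.2 to 82.1 CPM in KO, without overlap. Dissociation stress genes summed to 2527 to 8274 CPM against 2820 to 4492 CPM, and the part of either list was not tested. Only Sdf2l1, Pdia6 and Hspa5 were still called without P1 replicate 3, or with gates built from markers that are not secreted proteins. The call of Pdia3 was also lost without any 1 of the E16, P1 and P7 libraries, that of Creld2 without E14 replicate 2, any E16 library or P1 replicate 1 or 2, and that of Calr without P1 replicate 4. With a pseudocount of 1 CPM, with no filter on low values, or without cells of more than 3000 genes, Pdia3 and Creld2 were not called, and Pdia3 was also not called after centring on the median gene or with looser gates. Of the other secretory lists, 6 of 15 ER chaperones, 6 of 22 isomerases, 6 of 21 translocon genes, 2 of 19 genes of ER export and 1 of 14 genes of glycan trimming and degradation were lower and none was higher. Herpud1, an ER membrane protein of degradation, was at -1.06 (SE 0.16), the prolyl hydroxylase subunit P4ha2 at -1.98 (SE 0.31) and Sec11c at -1.54 (SE 0.22), the last of these opposite in sign to its difference in HCs.

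Roof-type cells showed members on both sides of KO. Here 2 were called higher, beside 14.1% of genes, and 1 lower, beside 16.7%, which is near the background in each direction. P4hb was above KO in 8 of 8 libraries, at 117% to 197% of its level (log2 0.63, SE 0.14, limma adjusted p = 4.51e-04). At P1 it measured 224, 328 and 367 CPM in roof-type cells against 114, 209 and 234 CPM in KO of the same 3 libraries. Calr was also above KO in 8 of 8 libraries, at 109% to 151% (log2 0.41, SE 0.12, limma adjusted p = 0.00852). Pdia4 was below KO in 8 of 8, at 31.6% to 92.5% (log2 -0.84, SE 0.20, limma adjusted p = 0.00126).

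The ages differed for this class. Pdia6 was above KO in 5 of the 5 embryonic libraries and below it in the 3 P1 libraries, at 31.5% to 86.3%, and Pdia3 followed the same order. Within P1, Hspa5, Pdia3, Pdia4, Pdia6, Sdf2l1 and Creld2 were lower, beside 20.4% of genes, and P4hb was higher, beside 15.3%. Without E16 replicate 1, Hspa5 joined Pdia4 as lower. P1 rested on 57, 16 and 50 roof-type cells. In this class the dissociation stress genes summed to 5631 to 6213 CPM at E14, 4044 to 7789 CPM at E16 and 5743 to 9059 CPM at P1. In KO they summed to 4289 to 5557, 2646 to 3541 and 2820 to 4492 CPM, below roof-type cells without overlap at each of these ages. Their part was not tested. Of the stress genes tested, 6 of 10 were higher in roof-type cells, as were 4 of 10 regulators of the unfolded protein response, while 8 of 22 other isomerases were lower and none higher. The other secretory lists were mixed, with 3 higher and 2 lower of 15 ER chaperones, 1 higher and 5 lower of 21 translocon genes, 3 higher of 14 genes of glycan trimming and degradation and 3 higher of 19 genes of ER export.

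Other cells were lower than KO for 4 members and higher for none, beside 2.94% of genes lower and 6.19% higher. These were Pdia4 (log2 -0.81, SE 0.18, limma adjusted p = 0.00149), Pdia6 (-0.71, SE 0.17, limma adjusted p = 0.00269), Hsp90b1 (-0.42, SE 0.10, limma adjusted p = 0.00407) and Calr (-0.33, SE 0.11, limma adjusted p = 0.0465). Each of the 4 was below KO in 11 of 11 libraries. Calr lost its call without any 1 of the E14, E16 and P1 libraries, with a pseudocount of 1 CPM, with no filter, with stricter or looser gates, and without cells of more than 3000 genes. No member was called with gates from markers that are not secreted. Within P1 there were 7 lower and none higher, beside 5.34% of genes lower and 8.79% higher, the addition being Hspa5, Pdia3 and Sdf2l1. Glial markers were high in other cells at P7, at 2680 to 7288 CPM over 6 genes against 67.0 to 148 CPM at the other ages, and so were mesenchymal markers, at 930 to 2242 CPM over 6 genes against 1.24 to 35.9 CPM. Without the P7 libraries, 4 members were still lower. The 5 inner phalangeal markers summed to 2871 to 5681 CPM in other cells at P1 against 1319 to 1759 CPM in KO, and to 2980 to 3175 CPM against 1148 to 1241 CPM at P7. Blood and immune markers, of which 5 of 6 were listed, spanned 22.0 to 1698 CPM in other cells at E16 against 31.1 to 499.9 CPM in KO. Of these markers, C1qa, Csf1r and Ptprc were under 1 CPM in every library of other cells, and Csf1r and Ptprc in every library of KO. The part of either list in these calls, the 7 within P1 included, was not tested. Of the other secretory lists, 2 of 15 ER chaperones, 4 of 22 isomerases, 2 of 21 translocon genes and 1 of 19 genes of ER export were lower, and 1 isomerase, 1 translocon gene and 1 of 14 genes of glycan trimming and degradation were higher.

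The supporting cells inside this class could be set apart by their own markers, as a description with no test. In cells gated for pillar, Deiters' and lateral prosensory markers, Hsp90b1 was 43.5% to 76.5% of KO and Pdia4 34.6% to 99.4%, and both were below KO in 11 of 11 libraries. In cells gated for Hensen's, Claudius and lesser ridge markers, Pdia4 was at 26.1% to 71.0% of KO, also below it in 11 of 11. In those cells P4hb was above KO in 8 of 11 libraries, with a median of 121%, Sdf2l1 in 5, and Hsp90b1 and Calr in 4 each. At P7 both gates were above KO in both libraries for Calr (123% to 133% in the pillar and Deiters' gate, 128% to 151% in the lateral gate), Sdf2l1 (110% to 143% and 157% to 191%) and P4hb (131% to 155% and 173% to 199%), from 67 and 72 cells in the first gate and 19 in each library in the second. Pillar and Deiters' cells at P1 had 399 to 528 CPM of Hsp90b1, above the 235 to 363 CPM of HCs without overlap.

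In the cells gated as KO, 3 members were called higher at P1 than at E16 and 6 lower at P7 than at P1. Between E14 and E16 none was called, beside 8.83% of 8587 genes in either direction, and 1 had an unadjusted p under 0.05. From E16 to P1, 3 were called higher and none lower, beside 7.31% of genes higher and 7.27% lower. Over this step the median UMI count per KO cell went from 2370 to 2636.5 in the E16 libraries to 3656 to 5454 in those of P1. All 8 cell cycle genes were called lower, and the part of depth and of cell cycle was not tested. Pdia6 went from 738, 886 and 1203 CPM to 2787, 2525, 2211 and 1880 CPM, with no overlap (log2 1.32, SE 0.20, limma adjusted p = 7.60e-04). Pdia3 went from 468, 583 and 738 CPM to 1923, 1182, 992 and 1791 CPM, again with no overlap (log2 1.26, SE 0.24, limma adjusted p = 0.00359). Pdia4 went from 583, 701 and 777 CPM to 1551, 1223, 1097 and 771 CPM, where replicate 4 of P1 overlapped E16 (log2 0.71, SE 0.22, limma adjusted p = 0.0436), and this call was lost without any library other than E16 replicate 3 or P1 replicate 4, with no filter on low values, with the denominator that leaves out mitochondrial, ribosomal, haemoglobin and gate genes, and after centring on the median gene.

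Replicate 4 of P1 stood apart from the other P1 libraries. In KO it had 803 CPM of Hspa5, 834 of Calr, 171 of Sdf2l1 and 119 of Creld2, where the other 3 had at least 1297, 1197, 481 and 333 CPM. Its levels of P4hb (234 CPM) and Pdia3 (1791 CPM) were the highest and next to highest of the 4, so that the gap was not shared by all members. Without it, 6 members were called higher at P1 than at E16, with Calr, Sdf2l1 and Creld2 added. Its total of UMIs was the largest of the 11 libraries and its median UMI count per cell the lowest of the 4 at P1.

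From P1 to P7, 6 members were called lower in KO and none higher, beside 13.7% of genes lower and 10.7% higher. P4hb dropped to 71.0 and 73.6 CPM, below all 4 P1 values (114, 209, 229 and 234 CPM, log2 -1.28, SE 0.25, limma adjusted p = 0.00220). Pdia4 dropped to 578 and 450 CPM, below all 4 P1 values (log2 -1.13, SE 0.25, limma adjusted p = 0.00456), and Pdia6 to 1507 and 1236 CPM (-0.76, SE 0.22, limma adjusted p = 0.0234). Sdf2l1 (-1.45, SE 0.42), Creld2 (-1.18, SE 0.38) and Calr (-0.68, SE 0.23) were also called. Replicate 4 of P1 was close to the P7 libraries for these 3, with 171 CPM of Sdf2l1 against 165 and 139 CPM, 119 CPM of Creld2 against 113 CPM in each, and 834 CPM of Calr against 725 and 757 CPM. Hspa5 was not, and its 2 P7 values of 2120 and 1551 CPM gave 0.44 (SE 0.35, limma adjusted p = 0.406).

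These P7 calls rested on few libraries. The count of 6 went to 2 without P7 replicate 4, to 1 without P7 replicate 5, to 3 without P1 replicate 2 or P1 replicate 3, and to 4 without P1 replicate 1 or either E14 library. The call left without P7 replicate 5 was that of P4hb. With libraries blocked by replicate number, this step rests on replicate 4 of P1 and of P7 alone. Pdia4, Pdia6 and Calr were then at -0.41, -0.32 and -0.20, and Sdf2l1 and Creld2 at -0.046 and -0.065. Of the 11 libraries, only E16 replicate 3 and P1 replicate 4 could be left out without losing the call of Calr. Calr and Creld2 were not called with no filter or after centring on the median gene, Pdia6 was not called after centring, and Calr was not called with stricter gates or without cells of more than 3000 genes. Dissociation stress genes in KO summed to 5685 to 7874 CPM at P7 against 2820 to 4492 CPM at P1, and mesenchymal markers to 118 to 159 CPM against 8.72 to 30.9 CPM. Endothelial markers summed to 67.9 to 72.4 CPM against 7.03 to 45.8 CPM, with Cldn5, Kdr and Cdh5 under 1 CPM in every KO library. The cells held by the KO gate differed too, with a median KO score of 0.91 at P7 against 1.56 at P1. At P7, 2075 cells passed the KO cut and 613 lay within 0.1 of it, against 11357 and 1024 at P1. The part of these lists and of the gate was not tested. Of the other secretory lists from P1 to P7, 9 of 22 isomerases and 8 of 21 translocon genes were lower and none was higher, whereas 2 of 15 other ER chaperones, 2 of 15 genes of glycan trimming and degradation and 1 of 19 genes of ER export were higher and none was lower. From E16 to P1, the counts called higher were 9 of 22 isomerases, 6 of 21 translocon genes, 6 of 15 other ER chaperones, 4 of 19 genes of ER export and 2 of 15 genes of glycan trimming and degradation. In that step 1 translocon gene and 1 gene of glycan trimming and degradation were called lower.

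In HCs, Creld2 was the 1 member called from E14 to E16, beside 8.41% of 9042 genes higher and 6.35% lower, a count near the background. It went from 41.7 and 65.2 CPM, in 21 and 31 cells, to 88.3, 100.2 and 145 CPM (log2 0.93, SE 0.29, limma adjusted p = 0.0366). Over the same step in HCs, blood and immune markers went from 0 CPM in both E14 libraries to 38.6 to 1446 CPM, and 4 endothelial markers from 10.7 to 26.4 CPM to 30.5 to 72.0 CPM. Of the endothelial markers, Kdr and Cdh5 were under 1 CPM in every HC library. Dissociation stress genes went from 2082 to 3135 CPM to 1103 to 1228 CPM, and epithelial markers, of which 5 of 6 were listed, from 1771 to 2035 CPM to 889 to 1085 CPM. None of these 4 lists overlapped between the ages, and their part was not tested. The Creld2 call was lost without E14 replicate 1, E16 replicate 2 or 3, P1 replicate 2 or 3, or either P7 library, and also with no filter on low values, with summed UMIs, with stricter or looser gates and with at least 25 cells per class. Pdia4 was called lower at E16 without E14 replicate 2 or P1 replicate 4, and with looser gates. From E16 to P1 limma called none, beside 16.1% of genes in either direction, with 5 members at an unadjusted p under 0.05. Pdia3 and Pdia6 were then called lower without P1 replicate 1, and Pdia3 lower and Calr higher without P1 replicate 4. From P1 to P7 limma also called none, beside 17.1% of genes, with 4 at an unadjusted p under 0.05, and Hspa5 was called higher without P1 replicate 1.

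**Figure D4:**
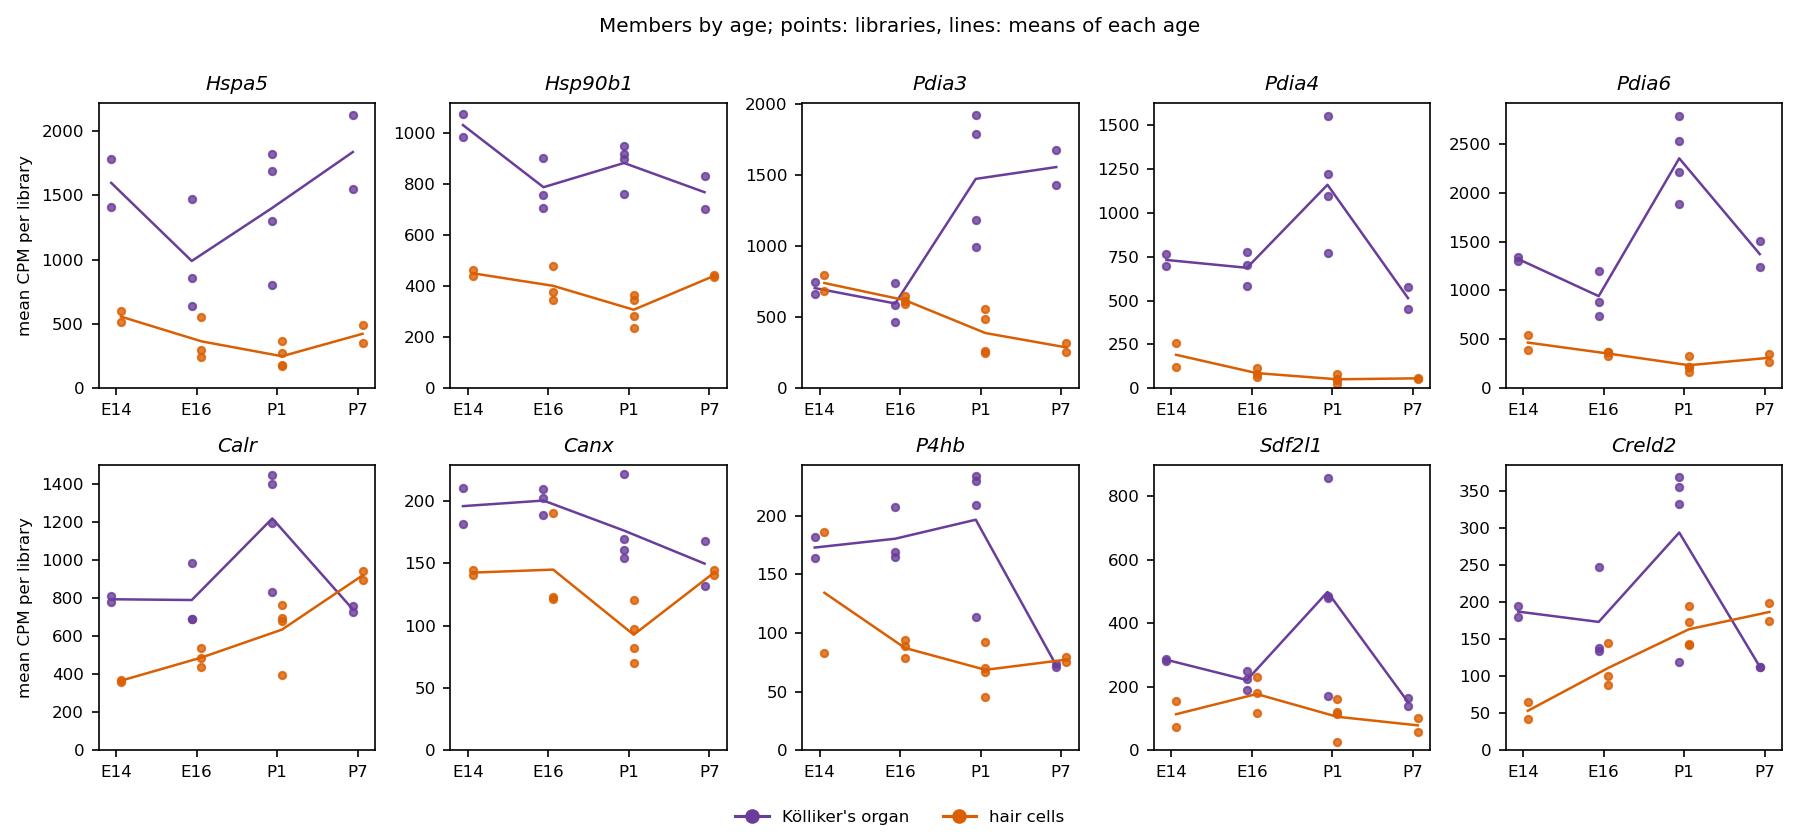
Mean CPM of each gene at E14, E16, P1 and P7 in Kölliker's organ (purple) and hair cells (orange), with points for libraries and lines through the age means, on linear axes that start at 0. Pdia3 starts at like levels in both classes at E14 and E16 and parts at P1, and Calr, P4hb and Creld2 of hair cells lie above Kölliker's organ in both P7 libraries.

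The gap between HCs and KO therefore differed between the libraries of E16 and P1, which was tested directly. Age and collection cannot be told apart in this test either. The hair class was not split into inner and outer HCs. The part of their mix at each age, here and in the steps of HCs between ages, was not tested. In the test of the difference itself (HC minus KO at P1 against the same at E16, each taken within its library), 6 members had a wider gap at P1 and none a narrower one, beside 10.5% of 9036 genes lower and 14.8% higher. Blood and immune markers summed to 38.6 to 1446 CPM in HCs at E16 and 0 to 3.29 CPM at P1, and to 31.1 to 499.9 CPM and 0.81 to 86.0 CPM in KO, and their part was not tested. Csf1r and Ptprc of that list were under 1 CPM in every KO library. Pdia3 changed most. HCs held 127%, 105% and 88.0% of the KO level in the E16 libraries and 28.9%, 22.2%, 25.2% and 27.1% in the P1 libraries, a difference of -2.004 on the log2 scale (SE 0.14, limma adjusted p = 3.90e-07). For Pdia6 the HC level went from 44.7%, 41.7% and 30.5% of KO to 12%, 8.76%, 10% and 8.92% (-1.93, SE 0.15, limma adjusted p = 9.56e-07).

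The same held for the other 4. Sdf2l1 went from 121%, 81.2% and 47.7% of the KO level to between 16.1% and 24.6% (-1.78, SE 0.24, limma adjusted p = 1.05e-04). Pdia4 (-1.43, SE 0.23, limma adjusted p = 3.98e-04), Hspa5 (-1.03, SE 0.17, limma adjusted p = 5.87e-04) and Hsp90b1 (-0.54, SE 0.16, limma adjusted p = 0.0228) followed, the last of which was lost without E16 replicate 1, E16 replicate 2 or P1 replicate 3. Calr, Canx and P4hb had differences of -0.27, -0.40 and -0.41 that did not pass the threshold. For Creld2 the value was -0.13 with all libraries and -0.59, then called, without P1 replicate 4, where HCs held 164% of the KO level against 38.6% to 48.8% in the other 3. At P7 the order turned for some members, as a description from 2 libraries. HCs held 130% and 119% of the KO level of Calr, 111% and 102% of P4hb, and 154% and 177% of Creld2, while Pdia3 stood at 19.1% and 17.9%. Dissociation stress genes summed to 4141 to 7484 CPM in HCs at P7 against 635 to 2283 CPM at P1, with 7 of 10 tested called higher, and their part was not tested.

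At P1, HCs were below the next class without overlap for Hsp90b1, Pdia4, Pdia6 and P4hb, and at E14 for these except P4hb and also for Hspa5, Calr and Creld2. KO overlapped the class next to it at P1 for all 10 members. At P7 KO was above other cells without overlap for Hsp90b1, Pdia3, Pdia4, Pdia6, Sdf2l1, Calr and Creld2, and for the last 2 of these HCs were higher still. Of the 543 and 583 other cells at P7, 452 and 497 passed no supporting cell gate, so that this order does not describe supporting cells, in which Calr and Sdf2l1 were above KO. These gaps without overlap describe ranges, with 2 libraries at E14 and 2 at P7. The share of all genes so apart was not counted.

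The members varied together across the 50 class and library values, each centred within its library. The correlation of a member with the mean of the other 9 ran from 0.96 for Pdia6 and 0.93 for Hsp90b1 down to 0.70 for Pdia3 and 0.38 for Creld2. Among 3513 other genes that averaged 50 CPM or more, the 8 most like the mean of the members were Dnajc3 (r = 0.88), Xbp1 (0.88), Ddost (0.88), Col9a1 (0.87), Nucb1 (0.87), Rcn3 (0.87), Ppib (0.87) and Rbm47 (0.87). These values describe points that share libraries and classes.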

How the data were processed

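Cochlear epithelia were dissected, treated with thermolysin and dissociated (with papain per the labels, with trypsin per the study's methods), and libraries were made on the 10x droplet system, with several animals pooled per library. Per the labels, reads were processed with Cell Ranger 2.1.1 against mm10 and normalized with Seurat 2.0. The values deposited by the authors are natural log values, ln(1 + 10000 × share of a cell's UMIs), for 1 table of cells per age. Whole UMI counts could be recovered from 100% of values within 2%. No count model was used, a choice made before the values were read, when log normalized values were expected. No column of another series was found (0).

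Cells were scored by the mean ln value of each marker list. The cuts were 0.8 (hair), 1.0 (roof), 0.6 (interdental), 0.6 (KO), 0.8 (pillar and Deiters') and 0.7 (Hensen's and Claudius). They were set after the score distributions were seen. Doublets were not called, and cells of more than 3000 genes, which are present in the deposited tables, were kept. Libraries held 1247 to 5598 cells, 3828399 to 23523802 UMIs and a median of 2478 to 5647.5 UMIs per cell. Mean CPM was taken per class and library with at least 10 cells. Values were compared as log2(CPM + 10) with limma's trended moderated test (limma 3.58.1, R 4.3.3) over genes with a mean of 10 CPM or more, with a library block between classes, and Benjamini-Hochberg adjustment over all genes at a threshold of 0.05. A fold change on this scale understates the change of low genes. The procedure was run on data simulated with independent normal noise and, between classes, with differences alike at all ages. That run cannot show how p-values behave where class differences change with age. Tables and figures used Python 3.11.15, numpy 2.4.6, scipy 1.17.1, pandas 2.3.3 and matplotlib 3.10.9. Promoter windows came from RefSeq (GRCm38.p6) by symbol, for 10 of 10 members.

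The members and the gene lists were chosen with earlier results of these data known. All 10 members are named. From each list and class comparison, at most 3 genes past the threshold with the largest fold were named, and the 8 genes most like the members. Alternatives varied the pseudocount, the filter, the averaging, the scaling, the gates, the cells kept, the replicate block and the libraries, and the fit without the P7 libraries was added after seeing the data. Replicate numbers were checked for pairing, and same-numbered libraries did not deviate together (correlations of -0.252 to 0.0972).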

Additional observations from a re-analysis of the deposited data

Results flagged for a closer look

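In replicate 4 of P1, Creld2 stood far from the other 3 libraries in 2 classes. In KO it measured 119 CPM against 333 to 369 CPM in the others, and in other cells 96.6 CPM against 188 to 196 CPM. Over 40 groups of libraries tested for a sample that stands apart, 2 were found and chance gives about 2.

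The difference between hair cells and KO changed from E16 to P1, by the test of that change itself, for 6 members. On the log2 scale the change was -2.004 for Pdia3, -1.93 for Pdia6, -1.78 for Sdf2l1, -1.43 for Pdia4, -1.03 for Hspa5 and -0.54 for Hsp90b1, each from 3 libraries at E16 and 4 at P1. Dissociation stress genes summed to 1103 to 1228 CPM in hair cells at E16 and 635 to 2283 CPM at P1, and to 2646 to 3541 CPM and 2820 to 4492 CPM in KO, and their part was not tested.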

How the results depend on the processing

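With 2 to 4 libraries per age, age contrasts rest on few values, and hair cells at E14 on 52 cells. The calls of all 10 members in hair cells against KO held in direction under every alternative run, and Creld2 alone lost its call. Of the values of single members under alternatives, 2144 kept direction and call, 118 lost the call, 32 gained it and 46 changed sign. The cause of each change below was not tested.

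With gates from markers that are not secreted, the number of members lower than in KO was 3 in interdental cells, 2 in roof-type cells and 0 in other cells (where limma called 4 with all markers), Canx was at -0.0074 in roof-type and 0.0013 in other cells, and, in hair cells, Canx from E14 to E16 was at 0.072 and Sdf2l1 from P1 to P7 at 0.055. Within P1, 6 members were lower and 1 higher in roof-type cells and 7 were lower in other cells. With at least 25 cells, Canx was at -0.0019 in roof-type cells and, from E14 to E16 in hair cells, at 0.015. The number of members higher in hair cells from E14 to E16 was 0 with no filter, with summed UMIs, with stricter or looser gates, with at least 25 cells and with the replicate block. With stricter gates Canx was at 0.30 there, and without cells of more than 3000 genes Hsp90b1 was at 0.075.

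With summed UMIs, P4hb in KO was at -0.074 from E14 to E16 and -0.079 from E16 to P1, and Canx in hair cells from E14 to E16 at 0.17. With mitochondrial, ribosomal, haemoglobin and gate genes out of the denominator, from E14 to E16 Pdia4 in KO was at 0.058, Calr in KO at 0.13 and Canx in hair cells at 0.11, P4hb in KO was at -0.062 from E16 to P1, and 2 members were lower in hair cells from E16 to P1. Centred on the median gene, from E14 to E16 Pdia4, Calr and Creld2 in KO were at 0.079, 0.15 and 0.019 and Canx in hair cells at 0.083, 3 members were lower in KO from P1 to P7, and 1 was lower in hair cells from E16 to P1. The median log2 change of all genes in KO was -0.17 from E14 to E16, and with the other denominator it was -0.049, -0.11 and -0.16 for the 3 steps of age. The share of calls that were higher moved with centring from 45.8% to 32.6% in roof-type cells, from 67.8% to 50.2% in other cells, from 34.7% to 68.6% in KO from E14 to E16 and from 60.0% to 46.9% in hair cells from E16 to P1. With the other denominator it was 63.1%, 32.2% (from 50.2%) and 32.9% (from 43.7%) in KO for the 3 steps of age, and 68.7% (from 57.0%) and 49.8% in hair cells for the first and second.

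The replicate block, which pairs libraries that share only a number, gave 6 members higher in KO from E16 to P1, 1 lower from P1 to P7, and 1 lower in hair cells from E16 to P1. P4hb in KO was then at -0.017 from E14 to E16 and -0.022 from E16 to P1, Hsp90b1, Pdia3 and Canx in KO from P1 to P7 at 0.13, -0.093 and 0.12, Canx in hair cells from E14 to E16 at 0.11, and Sdf2l1 and Creld2 in hair cells from P1 to P7 at 1.56 and -0.15.

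Leaving out 1 library at a time, the number of members lower was 3 to 6 in interdental cells, 1 to 2 in roof-type cells, 1 to 6 in KO from P1 to P7 and 0 to 2 in hair cells from E16 to P1, and the number higher was 2 to 6 in KO from E16 to P1 and 0 to 1 in hair cells from E14 to E16. In KO from E14 to E16, Pdia4 ran from -0.19 to 0.014, Calr from -0.20 to 0.058, Canx from -0.068 to 0.13 and P4hb from -0.046 to 0.12. P4hb ran from -0.022 to 0.30 in KO from E16 to P1 and Pdia3 from -0.042 to 0.27 from P1 to P7. In hair cells, Canx ran from -0.20 to 0.10 and P4hb from -1.01 to 0.065 from E14 to E16, and Pdia4 from -0.056 to 0.45 and Sdf2l1 from -0.71 to 0.14 from P1 to P7. The change of Creld2 between the classes from E16 to P1 ran from -0.59 to 0.073.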
